A study of Mus musculus with 6 samples.

Results

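Genes for proteins of the mitochondrial ribosome were examined in the dorsal forebrain of mouse embryos, in 3 mutant and 3 control embryos at E11.5. The genes were those whose symbol in the authors' deposited table begins with Mrpl or Mrps followed by a number, leaving out pseudogene names, a rule that uses symbols only. Each gene was represented by its brightest probe over the 6 arrays. This gave 75 genes of the 20942 rows tested, 29 of them with symbols beginning Mrps and 46 with symbols beginning Mrpl. The table has 2 symbol columns, and 49 of the genes are named in the column headed Gene Symbol while 26 are named in its Agilent symbol column alone. Mrpl21, which has a probe on the array but is not in that table, was not included. All 75 genes were well above background on all 6 arrays, so the filter on dim probes removed none of them.

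Each sample was tissue of 1 embryo brain, labelled as dorsal forebrain and, in the design text, as the dorso-medial part of the pallium. The labels call the genotypes mutant and control and name no gene, allele, Cre driver or strain, so what the control embryos carry is also not stated. The series title places the work in Wnt/beta-catenin signalling and the order in which precursors of the cortex choose fates. Mutant 1 and control 1 were from litter 1, mutant 2 and control 2 from litter 2, and mutant 3 and control 3 from litter 3.

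The mitochondrial ribosome translates the few messenger RNAs of the mitochondrial genome, all of which encode membrane subunits of the respiratory chain and of ATP synthase. Its ribosomal RNAs come from mitochondrial DNA, whereas its proteins are encoded in the nucleus, made in the cytosol and imported. Some of these proteins have counterparts in bacterial ribosomes and others are particular to mitochondria. The small subunit binds and decodes the messenger RNA, and the large subunit forms peptide bonds. Proliferating precursors of the early cortex are known to rely on both glycolysis and mitochondrial metabolism, and mitochondrial content and activity change as neurons are formed.

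A level is given as the log2 of the signal after division by its array's 75th percentile, and each difference (mutant minus control) is given with its standard error (SE). Probes differ in brightness at equal RNA, so the level of a probe says nothing of how much RNA one gene has relative to another. On the mutant arrays 65.75% to 67.9% of spots were well above background, against 68.68% to 70.1% on the control arrays, and the 75th percentile of the signal was 1206.9 to 1380.2 in mutants against 1446.2 to 1833.2 in controls. The arrays of litter 1 were on slide 1 and those of litters 2 and 3 on slide 2. Across all rows 7 passed an adjusted p of 0.05 in limma, which is 0.0334%, 2 higher and 5 lower in mutants. With litter as a block in the fit 0 rows passed, and with each embryo left out in turn 0 or 1 passed. The dorsal forebrain genes Pax6, Emx1 and Emx2 were well above background on all 6 arrays, with Emx1 at 0.57 and Emx2 at 0.527 times the control signal in mutants and every mutant below every control (limma adjusted p = 0.217 and 0.0662). Pax6 was at 1.26 times the control signal, with every mutant above every control (limma adjusted p = 0.198).

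Of the 75 mitochondrial ribosomal protein genes, 0 passed the adjusted p of 0.05 in either direction, against 0.0239% of all rows lower and 0.00955% higher. Most of their differences were nonetheless small and negative. The difference was negative for 62 genes (82.7%) and positive for 13, against 45.1% negative among all rows. The median was -0.094 on the log2 scale, with quartiles of -0.166 and -0.037, and the genes ranged from -0.337 for Mrps18b to 0.079 for Mrpl39. The median over all rows was 0.024, and over the 10614 rows within the same range of levels it was -0.013, with 53.3% negative.

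An unadjusted p under 0.05 was reached by 16 of the 75 genes (21.3%) with mutants lower and by 0 with mutants higher, against 7.48% of all rows lower and 9.45% higher. Their adjusted p-values ran from 0.167 for Mrpl12 to 0.272 for Mrpl47. Among the rows within the same range of levels the share was 10.4% lower. With litter as a block 11 genes reached it (14.7%, against 7.58% of all rows), and Mrpl3, Mrpl16, Mrpl35, Mrpl47 and Mrps2 no longer did. The number also depended on single embryos. Without control 2 it was 3 (4%), below the 5.08% of all rows in the same fit. Without control 3 it was 5 (6.67%, against 3.98% of all rows), without mutant 2 it was 6 (8%, against 6.1%) and without mutant 3 it was 9 (12%, against 6.53%), all with mutants lower. For 29 genes (38.7%) every mutant was lower than every control, against 12% of all rows and 17.4% of those in the same range of levels, and for 1 gene, Mrpl24, every mutant was higher, against 12.9%. Within litters, 43 genes (57.3%) were lower in the mutant in all 3 litters, against 21.3% of all rows and 29.3% of those in the same range, and 2 (Mrpl24 and Mrpl48) were higher in all 3, against 26.1%. The 75 levels come from the same 6 embryos and are not independent of each other. The median standard deviation of a gene was 0.079 among mutants and 0.058 among controls, and the median SE of a difference was 0.076, so that a typical difference was little larger than its error.

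**Figure D1:**
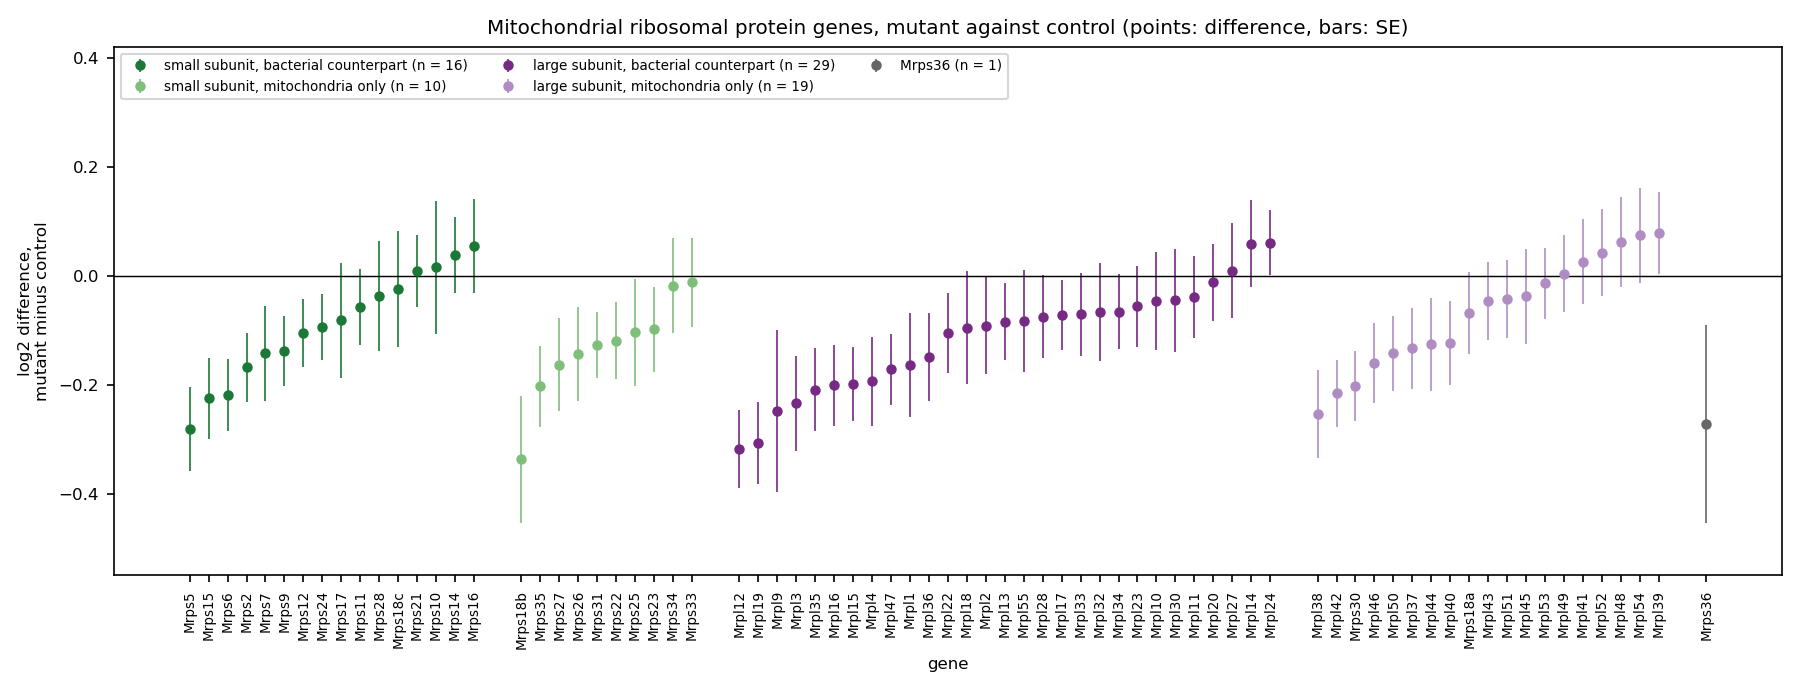
Log2 difference, mutant minus control, of each of the 75 genes (points, with bars of 1 SE), grouped by subunit and by whether the protein has a bacterial counterpart, and ordered by size within a group. In total 62 points lie below 0, the lowest at -0.337 (Mrps18b) and the highest at 0.079 (Mrpl39), and 0 genes passed the adjusted test.

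Promoters are shown for the gene with the lowest p (Mrpl12), the gene with the most negative difference (Mrps18b), a further pair of genes of low p (Mrps5 and Mrpl42) and the gene with all mutants above all controls (Mrpl24). The sequences are from RefSeq on GRCm38.p6, each 250 bases before to 50 bases after the start of the gene and written along its strand. They lie at chr11:120484387-120484686 (plus strand) for Mrpl12, chr17:35916391-35916690 (minus strand) for Mrps18b, chr2:127587176-127587475 (plus strand) for Mrps5, chr10:95501900-95502199 (minus strand) for Mrpl42 and chr3:87919294-87919593 (plus strand) for Mrpl24. Capitals mark matches to an NRF1 motif in Mrpl12, to an ETS motif in Mrps18b and to a YY1 motif in Mrpl42, and Mrps5 and Mrpl24 hold no match.
Mrpl12: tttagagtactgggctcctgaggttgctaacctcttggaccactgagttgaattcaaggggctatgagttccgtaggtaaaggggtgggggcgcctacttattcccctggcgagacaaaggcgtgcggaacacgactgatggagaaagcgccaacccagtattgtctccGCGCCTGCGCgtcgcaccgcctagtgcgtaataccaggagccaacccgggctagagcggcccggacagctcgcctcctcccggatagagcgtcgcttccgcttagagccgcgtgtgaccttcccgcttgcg
Mrps18b: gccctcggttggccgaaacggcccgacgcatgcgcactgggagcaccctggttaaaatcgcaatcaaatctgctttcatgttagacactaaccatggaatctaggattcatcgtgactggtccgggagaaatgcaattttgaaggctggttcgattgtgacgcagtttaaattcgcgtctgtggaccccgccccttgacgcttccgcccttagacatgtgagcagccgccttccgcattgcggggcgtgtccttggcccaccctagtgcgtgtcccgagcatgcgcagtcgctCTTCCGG
Mrps5: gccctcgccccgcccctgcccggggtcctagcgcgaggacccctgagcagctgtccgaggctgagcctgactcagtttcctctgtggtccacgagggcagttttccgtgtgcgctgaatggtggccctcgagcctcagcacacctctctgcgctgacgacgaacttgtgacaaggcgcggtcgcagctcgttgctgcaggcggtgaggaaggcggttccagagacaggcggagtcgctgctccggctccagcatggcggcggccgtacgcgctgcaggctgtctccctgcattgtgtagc
Mrpl42: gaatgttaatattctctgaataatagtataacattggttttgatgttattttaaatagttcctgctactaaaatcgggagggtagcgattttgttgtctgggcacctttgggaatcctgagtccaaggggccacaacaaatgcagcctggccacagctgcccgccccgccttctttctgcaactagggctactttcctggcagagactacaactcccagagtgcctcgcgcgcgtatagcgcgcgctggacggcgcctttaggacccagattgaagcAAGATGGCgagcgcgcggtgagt
Mrpl24: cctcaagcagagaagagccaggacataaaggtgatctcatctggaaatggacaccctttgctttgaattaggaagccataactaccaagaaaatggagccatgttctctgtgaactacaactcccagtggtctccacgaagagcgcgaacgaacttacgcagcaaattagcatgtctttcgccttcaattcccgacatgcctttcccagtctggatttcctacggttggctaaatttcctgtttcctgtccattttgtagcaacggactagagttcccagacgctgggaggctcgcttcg

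These motifs belong to factors known to control nuclear genes for mitochondrial proteins: NRF1 (searched as GCGC, then A and any base, then GCGC), the ETS factor GABP (searched as CCGGAAG) and YY1 (searched as AAGATGGC), with the E box bound by Myc and Max proteins (searched as CACGTG) as the last of 4. Both strands were searched, and the motifs' own overlaps were not resolved. A promoter was listed for 66 of the 75 genes and 42 of them held at least 1 match. The NRF1 motif was in 12 of the 66 (18.2%), against 5.19% of the 27025 genes with a promoter, the ETS motif in 23 (34.8%) against 9.93%, the YY1 motif in 12 (18.2%) against 3.19%, and the E box in 5 (7.58%) against 8.09%. The windows of these genes were also richer in G and C, at a median of 58.2% over 72 promoters against 52.7% over all 32851. The median difference was -0.07 for the 12 genes with the NRF1 motif and -0.094 for the 54 without it. It was -0.068 with the ETS motif (23 genes) and -0.124 without it (43 genes), and -0.119 with the YY1 motif (12 genes) and -0.082 without it (54 genes). With the E box it was -0.092 (5 genes), against -0.094 without it (61 genes). All 8 medians were negative. Of the 16 genes at an unadjusted p under 0.05, 12 had a listed promoter, and of these 1 held the NRF1 motif (8.33%), 2 the ETS motif (16.7%), 2 the YY1 motif (16.7%) and 0 the E box.

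Among the 26 small subunit genes 22 differences were negative and the median was -0.104. An unadjusted p under 0.05 with mutants lower was reached by 6 (23.1%, against 7.48% of all rows). Of the 26 genes 16 have bacterial counterparts, with a median of -0.088 and 4 lower at an unadjusted p under 0.05 (25%). The level of Mrps5, a protein of the subunit's body near the path of the messenger RNA, was -0.005, -0.059 and -0.189 in mutants 1 to 3, against 0.245, 0.175 and 0.169 in controls 1 to 3. All mutants were below all controls (probe at chr2:127426599-127427149, mm9). The difference of -0.281 (SE 0.077) corresponded to 0.823 times the control signal, and limma's adjusted p was 0.201.

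Mrps15, which binds the small ribosomal RNA early in assembly in bacteria, was at 1.52, 1.37 and 1.37 in mutants 1 to 3, against 1.69, 1.62 and 1.63 in controls 1 to 3. The groups did not overlap, and the difference was -0.225 (SE 0.074, limma adjusted p = 0.232). Mrps6, a protein of the platform, was at 2.14, 2.17 and 2.17 in mutants 1 to 3 and at 2.31, 2.41 and 2.42 in controls 1 to 3. The mutants lay close together below every control, with a difference of -0.219 (SE 0.066, limma adjusted p = 0.216). Mrps2, another bacterial-type protein, differed by -0.168 (SE 0.063, limma adjusted p = 0.27). Mrps12, a protein of the decoding centre whose bacterial counterpart is a site of streptomycin resistance, was at 2.81, 2.81 and 2.76 in mutants 1 to 3, against 2.87, 2.91 and 2.92 in controls 1 to 3. Its groups were also separate, but the difference was smaller at -0.105 (SE 0.062, limma adjusted p = 0.442). At the upper end of this class Mrps16 was at 0.055 (SE 0.086) and Mrps14 at 0.038 (SE 0.07), both with overlapping groups.

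The 10 small subunit genes particular to mitochondria all had negative differences, with a median of -0.123. An unadjusted p under 0.05 with mutants lower was reached by 2 (20%, against 7.48% of all rows). Mrps18b is one of several relatives of a single bacterial protein, but was listed here as particular to mitochondria. Its level was 2.66, 2.40 and 2.60 in mutants 1 to 3, against 2.74, 2.88 and 3.05 in controls 1 to 3. The groups did not overlap, yet litter 1 held little of the difference: mutant minus control was -0.076 in litter 1, -0.484 in litter 2 and -0.452 in litter 3. The overall difference of -0.337 had an SE of 0.117 and a limma adjusted p of 0.248. Mrps35 was at 0.86, 0.89 and 0.90 in mutants 1 to 3, against 0.99, 1.11 and 1.16 in controls 1 to 3, a difference of -0.203 (SE 0.074, limma adjusted p = 0.263). Mrps31 differed less but had the tightest groups of the class, at 1.44, 1.41 and 1.44 in mutants 1 to 3 and 1.55, 1.56 and 1.57 in controls 1 to 3. Its difference was -0.127 (SE 0.06, limma adjusted p = 0.355), and -0.083 on the authors' values. Mrps33 was near 0 at -0.012 (SE 0.082), and its other probe gave 0.024.

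**Figure D2:**
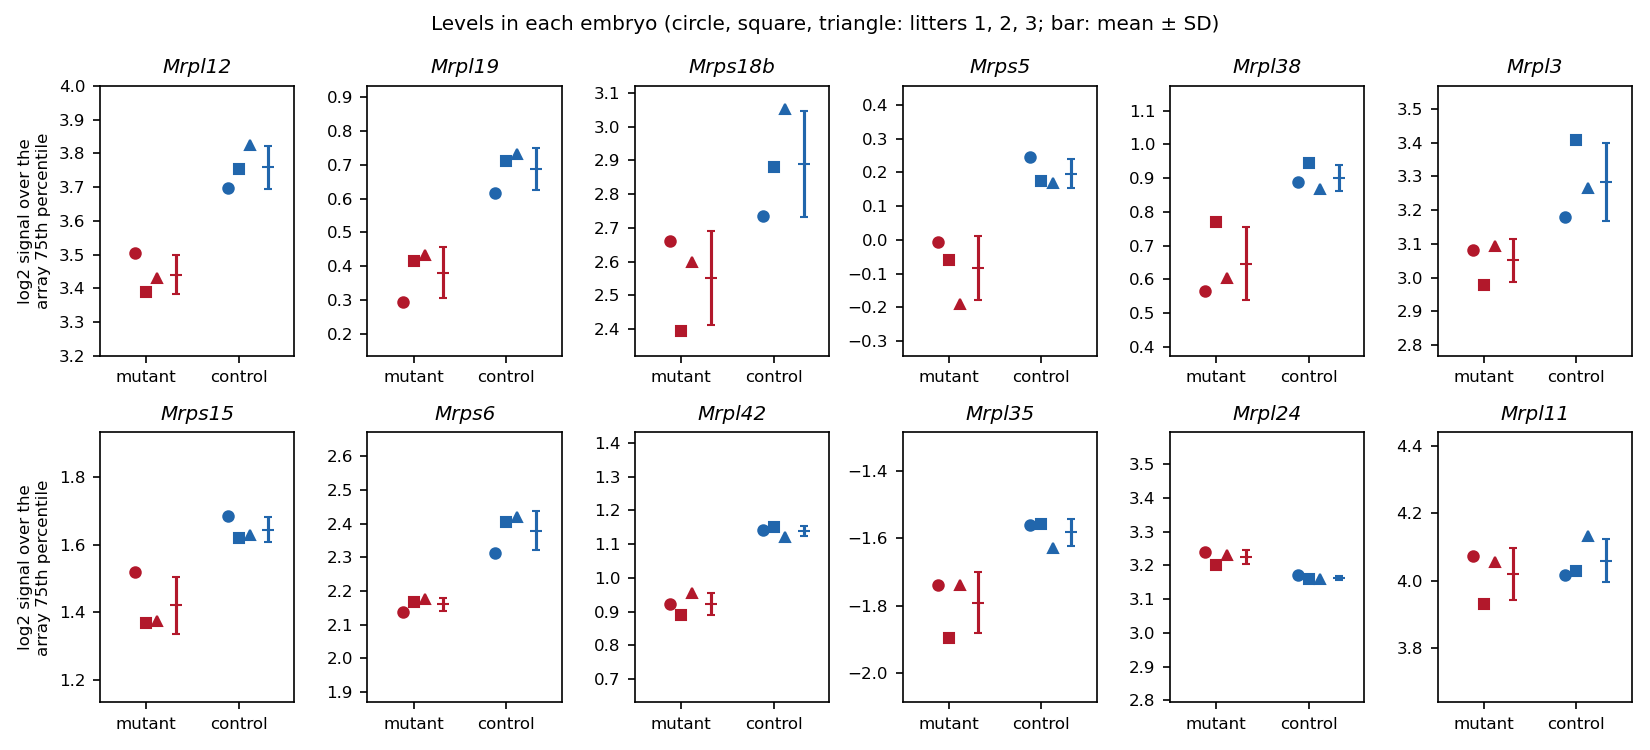
Levels of 12 genes in each embryo (log2 signal over the 75th percentile of the array), mutants at left and controls at right, each panel spanning the same number of log2 units, with the mean and SD beside the points. In 10 of the panels every mutant lies below every control, in that of Mrpl24 every mutant lies above every control, and in that of Mrpl11 the groups overlap.

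Among the 48 large subunit genes 39 differences were negative and the median was -0.079. An unadjusted p under 0.05 with mutants lower was reached by 10 (20.8%, against 7.48% of all rows). The 29 with bacterial counterparts had 26 negative differences, a median of -0.084 and 7 lower at an unadjusted p under 0.05 (24.1%). Mrpl12 belongs to the flexible stalk that contacts translation factors, and the human protein has also been reported to bind the mitochondrial RNA polymerase. Its level was 3.50, 3.39 and 3.43 in mutants 1 to 3, against 3.70, 3.75 and 3.83 in controls 1 to 3 (probe at chr11:120349740-120349799, mm9). All mutants were below all controls, and mutant minus control was -0.195, -0.365 and -0.394 in litters 1 to 3. The difference of -0.318 (SE 0.072), or 0.802 times the control signal, had an unadjusted p of 0.00491 and a limma adjusted p of 0.167, the lowest among the 75 genes. It ranged from -0.195 to -0.38 over the alternative settings.

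Mrpl19, on the face of the large subunit that meets the small subunit in bacteria, was at 0.29, 0.41 and 0.43 in mutants 1 to 3, against 0.62, 0.71 and 0.73 in controls 1 to 3. The gap was nearly the same in each litter, at -0.323, -0.299 and -0.299, and the difference was -0.307 (SE 0.076, limma adjusted p = 0.185). Mrpl3, whose bacterial counterpart reaches towards the peptidyl transferase centre, was at 3.08, 2.98 and 3.09 in mutants 1 to 3, against 3.18, 3.41 and 3.27 in controls 1 to 3. Its groups were separate, with the widest gap in litter 2, and the difference was -0.234 (SE 0.087, limma adjusted p = 0.269). Mrpl35 was among the dimmest of the 75 probes, at -1.74, -1.90 and -1.74 in mutants 1 to 3 and -1.56, -1.56 and -1.63 in controls 1 to 3, a difference of -0.209 (SE 0.076, limma adjusted p = 0.263). Mrpl15, a protein of the large subunit core, differed by -0.198 (SE 0.068, limma adjusted p = 0.244), Mrpl16 by -0.201 (SE 0.074) and Mrpl47 by -0.172 (SE 0.065).

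Some other bacterial-type proteins of the large subunit differed by about their error or less. Mrpl11, at the base of the stalk that carries Mrpl12, was at 4.07, 3.93 and 4.06 in mutants 1 to 3, against 4.02, 4.03 and 4.13 in controls 1 to 3. The groups overlapped and the difference was -0.039 (SE 0.076, limma adjusted p = 0.824). Mrpl10, which anchors the stalk, was at -0.047 (SE 0.09). Mrpl24, whose bacterial counterpart starts assembly of the large subunit, was the exception in sign, at 3.24, 3.20 and 3.23 in mutants 1 to 3, against 3.17, 3.16 and 3.16 in controls 1 to 3. All mutants were above all controls, but by only 0.061 (SE 0.06, limma adjusted p = 0.64). Mrpl27 was near 0 at 0.009 (SE 0.087), and its other probe gave -0.016.

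The 19 large subunit genes particular to mitochondria were the most mixed class, with 13 negative differences, 6 positive ones and a median of -0.046. At an unadjusted p under 0.05, 3 were lower (15.8%). The shares were 7.48% of all rows and 10.4% of rows within the level range of the 75 genes. Mrpl42 was at 0.92, 0.89 and 0.96 in mutants 1 to 3, against 1.14, 1.15 and 1.12 in controls 1 to 3, with a standard deviation of 0.033 among mutants and 0.015 among controls. The groups were well apart, and the difference was -0.216 (SE 0.062, limma adjusted p = 0.208; probe at chr10:94963065-94963124, mm9). Mrpl38, a relative of phosphatidylethanolamine-binding proteins, was at 0.56, 0.77 and 0.61 in mutants 1 to 3, against 0.89, 0.94 and 0.87 in controls 1 to 3, a difference of -0.254 (SE 0.081, limma adjusted p = 0.227). Mrps30, which structures place in the large subunit despite its symbol, was at 2.27, 2.22 and 2.28 in mutants 1 to 3 and at 2.43, 2.44 and 2.50 in controls 1 to 3. Every mutant was again below every control, by -0.202 on average (SE 0.064, limma adjusted p = 0.226). Mrpl39, a relative of threonyl-tRNA synthetase, was at the other end at 0.079 (SE 0.075, limma adjusted p = 0.623), with overlapping groups and a dim second probe at -0.126. Mrpl49 was at 0.004 (SE 0.07), with a second probe at -0.038.

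Mrps36 belongs to neither subunit, since its protein is now assigned to the 2-oxoglutarate dehydrogenase complex of the citric acid cycle. Its level was 1.55, 2.0 and 2.24 in mutants 1 to 3, against 2.12, 2.22 and 2.27 in controls 1 to 3, so that mutant 1 alone lay far down and the groups overlapped. The difference of -0.272 had an SE of 0.181, the largest of the 75, and a limma adjusted p of 0.487. Of the 24 genes with several kept probes, 18 had all probes negative, 2 had all probes positive and 4 (Mrpl27, Mrpl39, Mrpl49 and Mrps33) had probes of opposite sign, all 4 with differences within about 1 SE of 0 on the brightest probe. Without Mrps36 and these 4 genes the median was -0.097, with 0 genes past the adjusted test. An unadjusted p under 0.05 was reached by 16, all with mutants lower, against 7.48% of all rows.

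The 49 genes named in the Gene Symbol column, each on its brightest probe of that column, had 44 negative differences, a median of -0.119 and a range from -0.441 to 0.074. Of these genes 0 passed the adjusted test and 14 reached an unadjusted p under 0.05 with mutants lower, against 7.48% of all rows. In 23 every mutant was below every control, against 12% of all rows. For 4 genes this reading used a dimmer probe, with a difference of -0.441 for Mrps18b, -0.201 for Mrpl22, -0.196 for Mrps7 and -0.12 for Mrps26, against -0.337, -0.105, -0.142 and -0.144 on the brightest probe.

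The difference varied with the brightness of the probe. Among the 25 genes with the dimmest probes (levels from -1.834 to 1.887) the median difference was -0.138 and 8 reached an unadjusted p under 0.05, with mutants lower. In the middle 25 (levels from 1.902 to 2.9) the median was -0.095 with 6 such genes, and in the brightest 25 (levels from 2.957 to 4.595) it was -0.046 with 2. Of all rows 7.48% were lower at that p. All rows within the same 3 ranges of level had medians of -0.003, -0.028 and -0.038, so the brightest 25 lay near the rows of its own range. Across the 75 genes level and difference had a Spearman correlation of 0.4, given as a description since all points share the same arrays.

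In each embryo, the deviation of every gene from its control mean was summarised by the median over the 75 genes. It was -0.076, -0.149 and -0.057 in mutants 1 to 3, against -0.033, -0.002 and 0.042 in controls 1 to 3, so the mutants were all lower, with mutant 2 the lowest and control 3 the highest. For the small subunit it was -0.072, -0.173 and -0.065 in mutants 1 to 3, against -0.033, -0.008 and 0.034 in controls 1 to 3. For the large subunit it was -0.069, -0.133 and -0.046 in mutants 1 to 3, against -0.033, 0 and 0.043 in controls 1 to 3. Both subunits thus had the same order of embryos. Within litters the median over the 75 genes of mutant minus control was -0.045, -0.146 and -0.099 in litters 1 to 3, against 0.01, 0.011 and 0.036 over all rows. In the mutant 47, 72 and 57 of the genes were lower (62.7%, 96% and 76%), against 47.9%, 47.9% and 45.1% of all rows. On slide 2, which holds litters 2 and 3, the median over the 75 genes was -0.129.

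Markers of other cells also varied between embryos. The median deviation of 10 neuronal markers was 0.088, 0.443 and 0.512 in mutants 1 to 3, against 0.098, -0.001 and -0.111 in controls 1 to 3. All 10 had positive differences, 5 of them at an unadjusted p under 0.05. That of 6 basal progenitor markers was 0.126, 0.436 and 0.465 in mutants 1 to 3, against 0.049, -0.077 and 0.007 in controls 1 to 3, with all 6 differences positive and 3 at an unadjusted p under 0.05. Neuronal and basal progenitor markers were thus highest in mutants 2 and 3. The 10 markers of dorsal radial glia had medians of -0.036 to 0.177 in mutants and -0.026 to 0.015 in controls, with 3 higher and 2 lower at an unadjusted p under 0.05. Of all rows 9.45% were higher and 7.48% lower at that p. Of 5 subpallial markers 4 were measured, with medians of 1.386, 0.852 and 1.787 in mutants 1 to 3, against 0.957, 0.8 and -1.757 in controls 1 to 3. Control 3 alone was far down in subpallial markers, and it was also the highest embryo for the mitochondrial ribosomal protein genes, whose smallest adjusted p was 0.539 without it. Of 4 choroid plexus markers 2 were measured, with medians of -0.598 to 2.631 in mutants and -0.288 to 0.22 in controls. Nkx2-1, Ttr and Kcne2 of these lists had no tested row. Medians of 8 mesenchymal markers ran from -0.715 to 1.044 in mutants and from -0.255 to 0.249 in controls, and those of 6 endothelial markers from -0.401 to 0.215 in mutants and from -0.118 to 0.108 in controls. All 6 microglial markers had negative differences (medians -0.59 to 0.093 in mutants, -0.153 to 0.133 in controls), as did all 6 erythroid markers (medians -0.852 to 0.069 in mutants, -0.054 to 0.089 in controls). In limma 0 genes of these lists passed the adjusted test, and in the subpallial, choroid plexus, mesenchymal, endothelial, microglial and erythroid lists 0 reached an unadjusted p under 0.05. The part of these markers in the values of the mitochondrial ribosomal protein genes was not tested. In such tissue samples fewer cells of a type and less RNA per cell cannot be told apart.

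**Figure D3:**
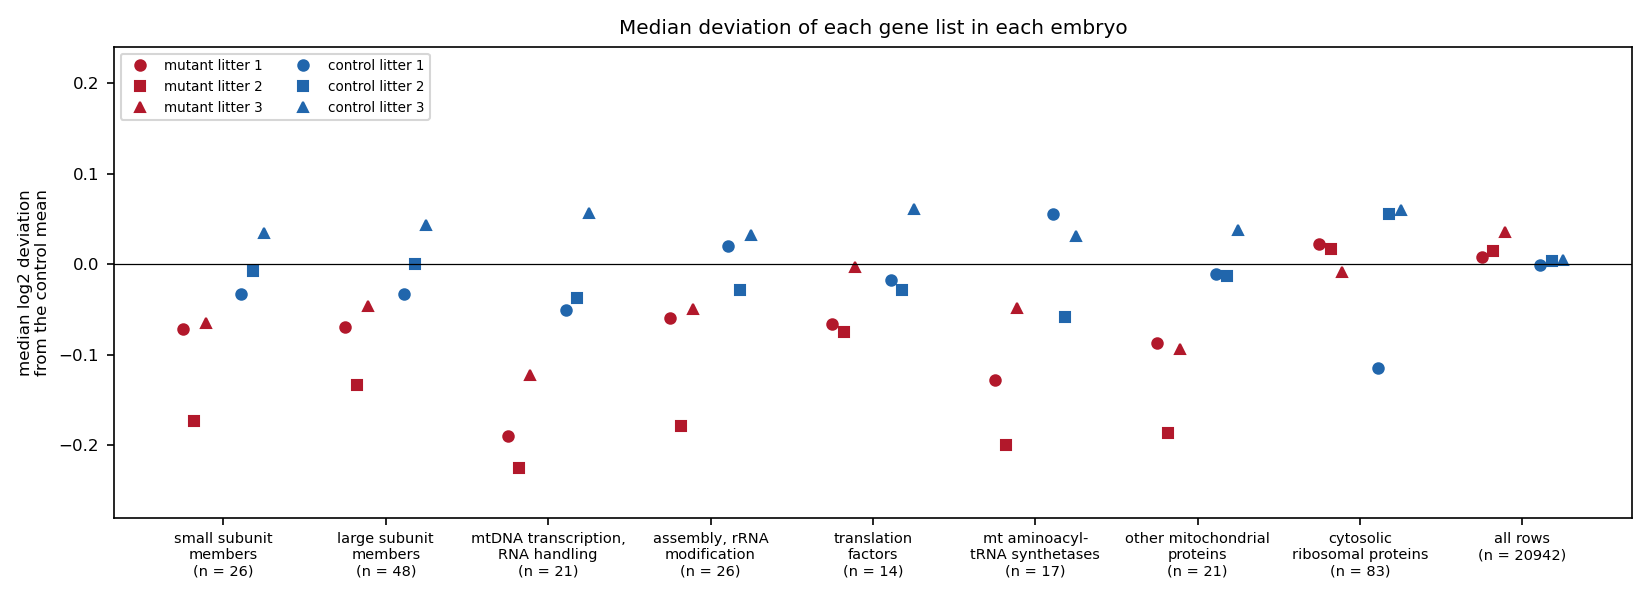
Median log2 deviation from the control mean over the genes of each list in each embryo, mutants (red) left of controls (blue), with litters 1, 2 and 3 as circle, square and triangle. For both subunits all 3 mutants lie below all 3 controls, while for the cytosolic ribosomal proteins control 1 lies lowest at -0.115.

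Proteins of the mitochondrial ribosome whose symbol in the deposited table follows another pattern (among them Mrpl57 and Mrpl58, listed there under older names) had 6 of 7 negative differences, a median of -0.157 and 0 at an unadjusted p under 0.05. Ptcd3, a pentatricopeptide repeat protein of the small subunit, was at -0.232 (SE 0.098, limma adjusted p = 0.31). Chchd1, also of the small subunit, was at -0.206 (SE 0.095) and Dap3, a GTP-binding protein of the same subunit, at -0.157 (SE 0.082). These 3 had the lowest p-values of the 7.

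Among 14 mitochondrial translation factors 8 differences were negative, the median was -0.047 and 2 reached an unadjusted p under 0.05 with mutants lower (14.3%, against 7.48% of all rows). Taco1, an activator of translation of a cytochrome oxidase subunit, was at -2.36, -2.46 and -2.28 in mutants 1 to 3, against -2.12, -2.17 and -2.03 in controls 1 to 3, a difference of -0.262 (SE 0.081, limma adjusted p = 0.221) that was -0.122 with normexp background correction. Tsfm, the nucleotide exchange factor of Tufm, differed by -0.228 (SE 0.074, limma adjusted p = 0.231), and Tufm itself, which brings aminoacyl-tRNA to the ribosome, by -0.16 (SE 0.067, limma adjusted p = 0.307). All 3 had separate groups.

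Factors for assembly of the mitochondrial ribosome and modification of its RNA had 19 of 26 negative differences and a median of -0.103. At an unadjusted p under 0.05, 7 were lower (26.9%, against 7.48% of all rows) and 1 was higher (against 9.45% of all rows). C1qbp, a matrix protein needed for mitochondrial translation in mice, was at 4.15, 4.07 and 4.13 in mutants 1 to 3, against 4.37, 4.47 and 4.55 in controls 1 to 3. The groups were well apart, with a difference of -0.35 (SE 0.077, limma adjusted p = 0.159). Mrm3 and Mrm1 methylate the large ribosomal RNA. Mrm3 was at -1.05, -1.09 and -1.15 in mutants 1 to 3 and at -0.71, -0.80 and -0.83 in controls 1 to 3, a difference of -0.318 (SE 0.07, limma adjusted p = 0.159). Mrm1 differed by -0.466 (SE 0.112, limma adjusted p = 0.178), or 0.724 times the control signal. The gene on the higher side was Tfb1m, a methyltransferase of the small ribosomal RNA, at 0.306 (SE 0.09, limma adjusted p = 0.213).

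The list for transcription of mitochondrial DNA and handling of its RNA had 20 of 21 measured genes negative and a median of -0.191. At an unadjusted p under 0.05, 9 of its genes were lower (42.9%, against 7.48% of all rows) and 0 higher. Its median deviation was -0.19, -0.225 and -0.122 in mutants 1 to 3, against -0.051, -0.037 and 0.057 in controls 1 to 3. Tfam, which packages mitochondrial DNA and starts its transcription, was at 1.49, 1.64 and 1.54 in mutants 1 to 3, against 1.80, 1.78 and 1.84 in controls 1 to 3, a difference of -0.251 (SE 0.071, limma adjusted p = 0.205). Twnk, the helicase of mitochondrial DNA, was at -1.59, -1.53 and -1.55 in mutants 1 to 3, against -1.32, -1.24 and -1.23 in controls 1 to 3. Its difference of -0.293 (SE 0.066) had a limma adjusted p of 0.166. Supv3l1, an RNA helicase of the mitochondrial degradosome, differed by -0.262 (SE 0.066, limma adjusted p = 0.187). The mutants were below the controls for each of these 3.

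Mitochondrial aminoacyl-tRNA synthetases, which charge the tRNAs used by the mitochondrial ribosome, had 16 of 17 negative differences and a median of -0.148. At an unadjusted p under 0.05, 3 were lower (17.6%, against 7.48% of all rows) and 1 was higher (against 9.45% of all rows). Ears2 differed by -0.37 (SE 0.095, limma adjusted p = 0.189) and Mars2 by -0.409 (SE 0.105, limma adjusted p = 0.189). The probe of Mars2 is dim, and with normexp background correction its difference was -0.042. Yars2 was the positive one, at 3.35, 3.30 and 3.57 in mutants 1 to 3, against 3.06, 3.06 and 3.14 in controls 1 to 3, a difference of 0.317 (SE 0.093, limma adjusted p = 0.211) that was 0.033 over the mean of its probes. Cytosolic ribosomal proteins, the corresponding set outside mitochondria, had 38 of 83 negative differences and 2 at an unadjusted p under 0.05 (2.41%), both lower. Their median was 0.01, and it turned negative under several settings, such as -0.018 with quantile normalization and -0.033 on the authors' values. By litter it was 0.119, -0.035 and -0.08, so litters differed in sign. The 2 genes were Rpl7l1 at -0.307 (SE 0.077, limma adjusted p = 0.187) and Rpl21 at -0.194 (SE 0.077, limma adjusted p = 0.289), which was -0.079 with normexp. Next came Rps23rg1 at 0.338 (SE 0.172, limma adjusted p = 0.381), which was 0.197 on the authors' values. Their probes, with control means of -0.556, -1.263 and -2.934, were far dimmer than most of the set, so these 3 do not stand for it. The set was taken by symbol alone, and whether each protein is part of the ribosome was not checked. Most probes of the cytosolic set were brighter than the brightest of the 75 mitochondrial ribosomal protein genes (level 4.595), so these sets stand side by side at unlike levels. The difference between these sets and the mitochondrial ribosomal protein genes was not tested.

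**Figure D4:**
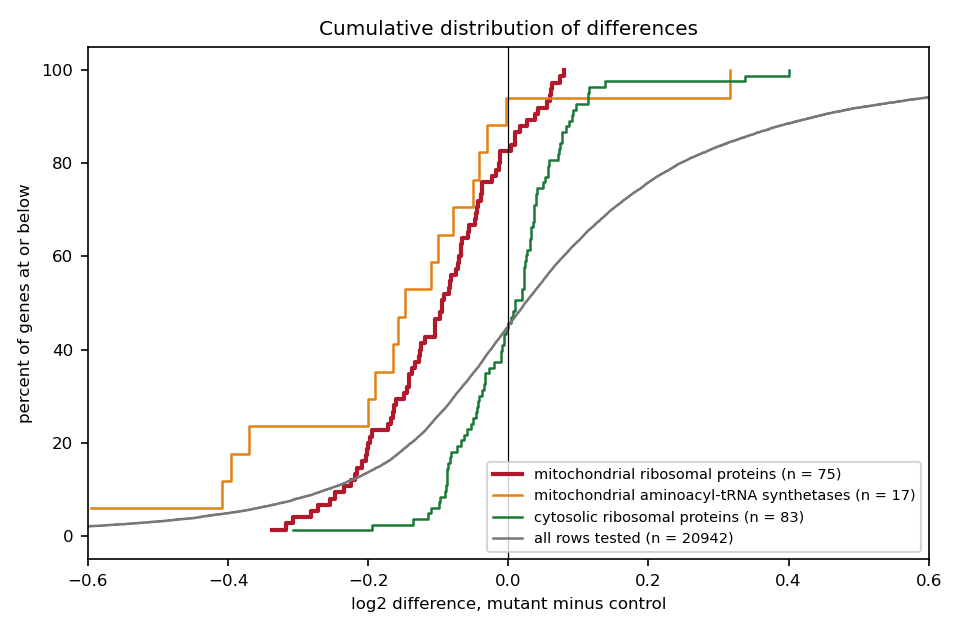
Percent of genes at or below each log2 difference, mutant minus control, for mitochondrial ribosomal proteins (75 genes), mitochondrial aminoacyl-tRNA synthetases (17), cytosolic ribosomal proteins (83) and all rows (20942), with the axis ending at 0.6 on both sides. The curve of the mitochondrial ribosomal proteins reaches 82.7% at 0, against 45.8% for the cytosolic ribosomal proteins and 45.1% for all rows. Most cytosolic ribosomal protein probes were brighter than any of the 75, so the levels of these curves are not matched.

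Other mitochondrial proteins (channels, import, chaperones and citric acid cycle) had 17 of 21 negative differences and a median of -0.098, with 7 at an unadjusted p under 0.05, all lower (33.3%, against 7.48% of all rows). Their median deviation was -0.087, -0.186 and -0.094 in mutants 1 to 3, against -0.011, -0.013 and 0.038 in controls 1 to 3. The chaperone Hspd1 was at 5.06, 4.97 and 5.19 in mutants 1 to 3, against 5.31, 5.39 and 5.50 in controls 1 to 3, a difference of -0.331 (SE 0.092, limma adjusted p = 0.202). The chaperone Hspa9 differed by -0.299 (SE 0.074, limma adjusted p = 0.185) and the import channel Timm23 by -0.283 (SE 0.065, limma adjusted p = 0.169). Among 8 subunits of mitochondrial proteases 6 were negative, the median was -0.078 and 1 reached an unadjusted p under 0.05 (12.5%). It was Afg3l2 at -0.223 (SE 0.064, limma adjusted p = 0.208), a protease subunit known to process Mrpl32 in mice. Clpx and Clpp, the chaperone and peptidase of one matrix protease, were at -0.149 (SE 0.07) and -0.13 (SE 0.061), the second of these -0.08 on the authors' values.

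Nuclear regulators of mitochondrial biogenesis showed wider differences in both directions, with 7 of 11 negative and a median of -0.061. At an unadjusted p under 0.05, 3 were lower (27.3%, against 7.48% of all rows) and 1 was higher (against 9.45% of all rows). Mycn, a transcription factor of proliferating neural precursors, was at 2.28, 1.95 and 1.95 in mutants 1 to 3, against 3.15, 3.28 and 3.37 in controls 1 to 3. The gap was large, -1.21 (SE 0.12) or 0.432 times the control signal, with a limma adjusted p of 0.0588. Over the alternative settings it ranged from 0.0139 with a variance trend and robust fit to 0.308 without control 3, it was under 0.05 in 5 of them, and it was 0.156 with litter as a block. Ppargc1a, a coactivator of mitochondrial gene expression, was at -0.72, -0.39 and -0.61 in mutants 1 to 3, against -1.03, -1.31 and -1.48 in controls 1 to 3, a difference of 0.698 (SE 0.149, limma adjusted p = 0.153). Its relative Pprc1 had separate groups and was at -0.434 (SE 0.124, limma adjusted p = 0.208). Ppargc1b, the remaining gene at an unadjusted p under 0.05, was at -0.641 (SE 0.203, limma adjusted p = 0.227), with a probe near background that was well above it on 4 of the 6 arrays. Of the factors whose motifs were counted above, Nrf1 was at -0.015 (SE 0.092), Gabpa at -0.088 (SE 0.105) and Yy1 at 0.053 (SE 0.084), each with overlapping groups. For the E box, counted too, Mycn at -1.21 is given above, and Myc was at -0.061 (SE 0.126) with overlapping groups.

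The authors' deposited table gives its own comparison of mutant and control. It lists 27269 probes, and of these 357 had an fdr under 0.05 in the authors' deposited table, which is 1.31%. Of the probes that stand for the 75 genes, 70 had no fdr in the authors' deposited table and 5 had one: 0.07496 for Mrpl19, 0.07887 for Mrps5, 0.1159 for Mrps18b, 0.3754 for Mrpl9 and 0.3876 for Mrps36. The authors' deposited table gave a negative log2 ratio for 59 of them, with a range from -0.3297 to 0.1339, and a p-value under 0.05 for 11, all 11 with negative ratios. The shares of all its probes with a negative ratio or at that p are not given here. On its sample values, refitted with limma by group, 0 of the 75 genes passed. In that refit their median difference was -0.067, against -0.007 over all rows. An unadjusted limma p under 0.05 with mutants lower was reached by 12 (16%), against 9.22% of all rows.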

How the data were processed

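Total RNA of 6 embryos was hybridised to 1-colour (Cy3) Agilent arrays (design 026655), 1 embryo per array. The scanner files deposited by the authors hold spot intensity on a linear scale, extracted, per the file headers, with Agilent Feature Extraction 10.7.3.1 (grid on mm9). Per the same headers, background was subtracted from this signal and arrays were not scaled to each other. A series table deposited by the authors holds log2 values for 27269 probes, a log2 ratio, a linear ratio, a p-value and an fdr. Limma is named without a role in the submitters' processing notes, and the sources used here do not state how these values were normalized. Its sample columns were used by group only.

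Outlier spots were dropped, spots of a probe averaged, and log2 processed signals reduced by the 75th percentile of each array's 43020 non-control spots. Probes well above background on at least 3 arrays and with a value on all 6 were kept (26849), the brightest per gene was used, and 20942 rows were fitted in R 4.3.3 with limma 3.58.1 (lmFit, eBayes), two-sided, with Benjamini-Hochberg adjustment over all rows at 0.05. Probes were named through accessions in a RefSeq table of GRCm38.p6, used for names only, or by the deposited symbol. Promoter sequences are RefSeq's on that build, and probe positions are mm9. Files were read with pandas 2.3.3 and numpy 2.4.6 under Python 3.11.15, and figures drawn with matplotlib 3.10.9. The fit was tested on simulated data.

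The members and lists were chosen with earlier results of these data known. Genes were named by a rule: the members with the largest differences and separate groups (up to 10 in each direction), the 4 of lowest p, members whose probes differ in sign, Mrpl12, Mrps12, Mrpl11 and Mrps36, and the 3 genes of lowest p in each list. Mrps2, Mrps7, Mrps14, Mrps16, Mrps26, Mrpl9, Mrpl10, Mrpl16, Mrpl22, Mrpl47, Mrpl48, Mrpl57, Mrpl58, Tfb1m, Ppargc1b, Nrf1, Gabpa, Yy1, Pax6, Emx1 and Emx2 were named in addition, after their values were seen, and some single genes are not reported here. The embryos are separate animals, and the number of arrays limits precision. Litters, given in the titles, pair the samples. Deviations from group means correlated at 0.309, 0.357 and 0.108 within litters 1 to 3 and at -0.41 to 0.107 between litters. The deviations of a group sum to 0, so within and between values are not independent. The value of litter 3 was close to the highest between litters. Alternatives changed background correction, scaling, filter, probe choice, blocks, variance model, weights, values, threshold, member lists and embryos.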

Additional observations from a re-analysis of the deposited data

How the results depend on the processing

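The count of mitochondrial ribosomal protein genes past the adjusted p was 0 in all alternatives run, with litter or slide as a block and with an adjusted p under 0.1 included, and 53 to 67 of the 75 differences were negative in every fit. The smallest adjusted p of such a gene ranged from 0.079 (variance trend and robust fit) to 0.539 (without control 3) and was 0.158 with the litter block, which changed no call of these genes. The count of rows past the threshold, 7 of all rows, was less stable: 120 with normexp, 15 with quantile normalization, 0 without a filter, 26 with probes well above background on all 6 arrays, 2 with probes of a gene averaged, 0 with litter as a block, 0 with slide as a block, 142 with a variance trend and robust fit, 19 with array weights, 34 on the authors' log2 values, 80 at an adjusted p under 0.1, and 0 to 1 with an embryo left out. The causes were not tested.

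The count of genes at an unadjusted p under 0.05 (an alternative added after seeing the data) was 16, with 7.48% of all rows lower at that p. It was 9 without a filter (4.32% of all rows), 11 with the litter block (7.58%), 17 with slide as a block (7.95%), 18 with median centring (8.87%), 19 with array weights (9.02%), 20 with a variance trend and robust fit (8.4%) and 3 to 15 with an embryo left out (3.98% to 8.76%). The median over the 75 genes was -0.045 within slide 1, which holds 1 embryo per group, and -0.063 to -0.119 with an embryo left out. For the large subunit it was -0.022 within slide 1 and for the small subunit -0.055.

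Of 931 recomputed differences of named genes 25 changed sign, all of 5 genes near 0. Mrpl27 was at -0.027 with normexp, -0.021 with median centring, -0.003 with the mean of its probes, -0.018 with array weights and -0.054 to 0.073 with an embryo left out. Mrpl49 was at -0.038, -0.026, -0.017 and -0.016 under the same settings, at -0.017 on the authors' values, -0.016 within slide 2 and -0.033 to 0.026 with an embryo left out. Mrps33 was at 0.001 with normexp, 0.007 with quantile normalization, 0.006 with the mean of its probes, 0.05 on the authors' values, 0.003 within slide 1 and -0.061 to 0.042 with an embryo left out. Mrpl11 was at 0.017 on the authors' values, 0.056 within slide 1 and -0.065 to 0.005 with an embryo left out. Mrpl39 was at -0.023 with the mean of its probes. Arrays of 3 embryos per group limit what small differences can show.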
